A study of Mus musculus with 23 samples.

Results

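Heat shock chaperones were followed by 10 genes, found by Ensembl identifier among the 56941 genes of the count tables and named by the GRCm39 annotation. These were the inducible HSP70 genes *Hspa1a* and *Hspa1b*, the constitutive HSP70 gene *Hspa8*, the HSP110 gene *Hsph1*, the HSP90 gene *Hsp90aa1*, the HSP40 gene *Dnajb1*, the small heat shock protein genes *Hspb1*, *Hspb8* and *Cryab*, and the co-chaperone gene *Bag3*. All 10 matched 1 identifier each and all 10 passed the filter on low counts.

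The libraries hold RNA of primary hippocampal neurons from homozygous Nedd8cKO P0 mice, in which exons of *Nedd8* lie between LoxP sites, so the control cultures carry the floxed alleles too. Neurons were infected on day 1 in culture with a lentivirus encoding RFP alone or RFP with CRE recombinase, which removes the floxed exons, and RNA was taken at day 12 by the labels and 1 day later by the study's methods. The comparison asks which transcripts differ between CRE libraries, in which *Nedd8*, the ubiquitin-like modifier best known for activating cullin ligases, is removed, and RFP libraries. No CRE library lacks the floxed alleles, so loss of *Nedd8* and presence of CRE cannot be told apart. Both viruses use the Synapsin1 promoter, which is active in neurons, so glia in these cultures need not express CRE. There were 23 libraries, 12 CRE and 11 RFP, with no group of neurons without virus among them. They are named here by a set number (1, 2 or 3) and a number within the set, as CRE 1-3. The labels do not say what a set is, or whether libraries of a set came from separate animals or dishes, so the p-values measure the spread between libraries, which may be partly technical.

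Chaperones hold unfolded proteins, refold them or pass them on for degradation. HSP70 proteins work in cycles with HSP40 proteins, which deliver clients, and with exchange factors such as BAG3 and the HSP110 proteins, which release them. Small heat shock proteins bind unfolding proteins without ATP, and HSPB8 pairs with BAG3 to send HSP70 clients to autophagy. In stressed cells HSF1 binds heat shock elements, inverted repeats of GAA units, before the inducible chaperone genes, while *Hspa8* serves the folding and vesicle uncoating needs of unstressed neurons.

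The groups were compared over 21 libraries, 11 CRE and 10 RFP, with total counts from 7430401 to 13345552 and from 9833872 to 17112815. These are the libraries of the study's count table, without CRE 3-3 (1546796 counts) and RFP 3-2 (7635735 counts, 24.2% of them from 18S ribosomal RNA). The study's methods name CRE 1-3 and CRE 3-3 as removed instead. Of the libraries compared, CRE 1-3 and RFP 2-4 stood apart, with 0.261% and 3.43% mitochondrial counts against 7.0% to 11.1% in the other 19, and with a rank correlation between a gene's level relative to the other libraries and its GC content of 0.73 and 0.40, against -0.31 to 0.09 in the 19 others. The fold change of each member is therefore also plotted over 19 libraries, without these 4, and given in words where the call differs. *Nedd8* stood at 5.92 to 17.96 CPM (counts scaled to the library's size with TMM factors) in CRE and at 44.1 to 76.0 in RFP libraries, as their labels say. Markers of neurons summed to 2591 to 6136 CPM in CRE and 6056 to 7405 in RFP libraries, with 6 of 10 lower in CRE and 1 higher. Markers of astrocytes summed to 1673 to 5368 against 3739 to 8024 (2 of 10 higher, 4 lower), and those of mural and fibroblast cells to 87.7 to 487 against 21.98 to 184 (2 of 9 tested higher, 0 lower), so the cultures were not neurons alone. Of the other lists, precursors of oligodendrocytes gave 5 of 6 lower, oligodendrocytes 3 of 7 lower, microglia 1 of 3 higher and endothelial cells 1 of 1 lower. Among all genes tested 16.4% were higher and 13.8% lower. Only 3 of 10 microglial and 1 of 7 endothelial markers passed the filter on low counts. The 1 gene called in each was near the floor, with medians of 1.83 (CRE) and 0.11 CPM (RFP) for microglia and 1.91 and 3.89 CPM for endothelial cells. No listed marker was at 0 in every library.

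The sequences before the starts of the genes are shown for the 4 that were higher in CRE libraries, 150 bases 5′ to 3′ on the gene's strand up to the base before the start of the canonical transcript in GRCm39. Capitals mark a heat shock element of 2 units, searched as GAANNTTC or TTCNNGAA on both strands.
Hspb1: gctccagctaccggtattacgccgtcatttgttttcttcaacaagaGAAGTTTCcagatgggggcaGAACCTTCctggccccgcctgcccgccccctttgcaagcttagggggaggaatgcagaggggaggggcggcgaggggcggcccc
Cryab: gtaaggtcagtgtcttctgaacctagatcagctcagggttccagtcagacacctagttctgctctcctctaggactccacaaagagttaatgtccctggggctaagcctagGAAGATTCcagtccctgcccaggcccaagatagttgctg
Hspb8: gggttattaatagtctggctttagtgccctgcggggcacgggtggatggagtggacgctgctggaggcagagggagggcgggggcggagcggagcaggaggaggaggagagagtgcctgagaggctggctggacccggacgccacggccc
Bag3: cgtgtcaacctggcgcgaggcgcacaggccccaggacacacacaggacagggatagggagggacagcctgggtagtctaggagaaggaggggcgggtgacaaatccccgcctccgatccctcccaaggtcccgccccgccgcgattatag
The windows are chr5:135916610-135916759 on the plus strand for *Hspb1*, chr9:50664037-50664186 on the plus strand for *Cryab*, chr5:116561085-116561234 on the minus strand for *Hspb8*, and chr7:128125133-128125282 on the plus strand for *Bag3*. *Hspb1* held the element at -104 and at -84 from the start, *Cryab* held it at -39, and *Hspb8* and *Bag3* did not hold these letters.

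Elements near the starts of members that did not pass the test are given with 8 bases on each side, for comparison.
Hspa1a and Hspa1b: aactgctgGAAGATTCctggcccc
Hsph1: tagaatctTTCTCGAAggctcgag
Dnajb1: gaggggcgGAAGGTTCtggagggc
The capitals lie at chr17:35191229-35191236 (*Hspa1a*) and chr17:35178311-35178318 (*Hspa1b*), both -104 from the start on the minus strand, at chr5:149559827-149559834 (*Hsph1*, minus strand, -28, with a further match at 42 after the start), and at chr8:84334850-84334857 (*Dnajb1*, plus strand, 29 after the start). From 250 bases before to 50 after the start, 6 of the 10 members held the element, against 14.3% of 21667 protein-coding promoters searched the same way. *Hspa1a* and *Hspa1b*, counted as 2 of the 6, differ at 3 of the 250 bases before the start and hold the same match. Members with the element were thus found on both sides, 2 among the 4 that were higher and 4 among the 6 that were not. A match is a run of letters, not a measured binding site. Followed in the same spacing by a further unit (NNGAA or NNTTC), the element was found in 0.475% of the promoters and in 0 members.

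CRE libraries held more RNA of the small heat shock protein genes *Hspb8* and *Cryab* and of *Bag3*, between 2.29- and 3.43-fold, and more counts of *Hspb1*, which was near 0 in RFP libraries, while neither inducible HSP70 gene passed the test. At an adjusted p under 0.05 in the quasi-likelihood test of edgeR, adjusted by the Benjamini-Hochberg method, 4 of the 10 members rose and 0 fell, where 16.4% of the 14488 genes tested were higher and 13.8% lower. *Hspb1*, 1 of the 4, entered the test through its counts in CRE libraries alone. The median log2 fold change was 0.03 over the 10 members and 0.02 over all genes tested. Levels of the 4 genes, picked because they were higher in these same libraries, summed to a median of 195.0 CPM in CRE (109.4 to 384.6). In RFP libraries their summed levels had a median of 60.9 CPM (47.6 to 83.7). The sum over all 10 members went the other way, with a median of 2433 CPM in CRE (1235 to 2697) and 2604 in RFP (2494 to 2929). Most of that larger sum came from *Hspa8* and *Hsp90aa1*, with medians of 1989 CPM in CRE and 2297 in RFP libraries for the 2 together. As these are bulk cultures, fewer cells of a type and less RNA per cell cannot be told apart. The part that the shifts in neuronal, astrocyte, oligodendrocyte, oligodendrocyte precursor and mural markers have in these differences was not tested.

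**Figure D1:**
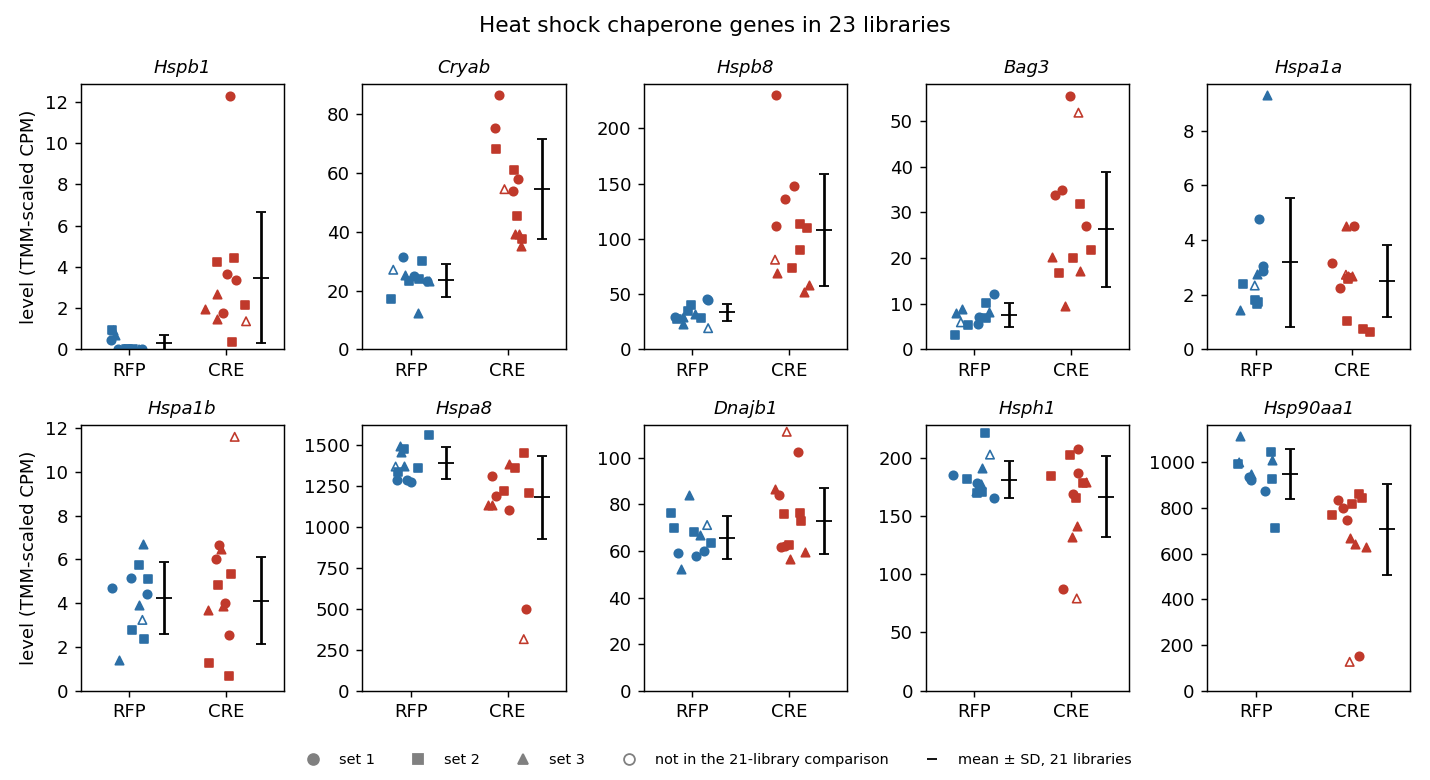
Each point is 1 of 23 libraries and the y axis of each panel is the gene's level in TMM-scaled CPM from 0; marker shapes give the set, open symbols the libraries CRE 3-3 and RFP 3-2, and bars the mean ± SD of the 21 libraries compared. Over the 21 libraries *Hspb8* and *Cryab* did not overlap between groups, with every CRE library higher, as for 2.64% of all genes tested. Both inducible HSP70 genes overlapped. CRE 1-3 was the highest or lowest of the 11 CRE libraries compared in 8 of the 10 panels.

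*Hspb8* (ENSMUSG00000041548, chr5:116546409-116561084, minus strand, 3 exons) encodes the small heat shock protein that partners with BAG3. Its lowest, median and highest levels were 52.0, 109.4 and 229.9 CPM in the 11 CRE libraries and 23.1, 30.7 and 45.9 in the 10 RFP libraries. The groups did not overlap, as every CRE library lay above every RFP library, which held for 2.64% of all genes tested. The means were 108.2 ± 50.9 (SD, n = 11) and 33.5 ± 7.77 (SD, n = 10) CPM, with a fitted fold of 3.19 (log2 fold change 1.67, standard error 0.21, edgeR adjusted p = 1.4e-06).

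*Bag3* (ENSMUSG00000030847, chr7:128125283-128148705, plus strand, 4 exons) encodes the HSP70 exchange factor that steers clients to autophagy. It ranged from 9.55 over a median of 21.9 to 55.6 CPM in CRE and from 3.16 over 7.56 to 12.2 CPM in RFP libraries. Of the 11 CRE libraries 10 were above every RFP library, and only CRE 3-4, at 9.55 CPM, was within the RFP range. The mean was 26.3 ± 12.5 (SD, n = 11) against 7.56 ± 2.57 (SD, n = 10) CPM, with a fitted fold of 3.43 (log2 fold change 1.78, standard error 0.26, edgeR adjusted p = 8.2e-06). The antisense gene *4921520J07Rik*, which overlaps 486 of its exonic bases, had at most 10 counts in any library.

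*Cryab* (ENSMUSG00000032060, chr9:50651859-50668567, plus strand) encodes alpha B crystallin, a small heat shock protein abundant in astrocytes and oligodendrocytes of the brain. Levels ran from 35.2 (median 53.8) to 86.8 CPM in CRE and from 12.3 (median 23.7) to 31.4 CPM in RFP libraries, again without overlap. Its mean of 54.6 ± 17.1 (SD, n = 11) CPM stood against 23.5 ± 5.52 (SD, n = 10) in RFP libraries, with a fitted fold of 2.29 (log2 fold change 1.19, standard error 0.18, edgeR adjusted p = 1.07e-05). Over all genes tested, 2.64% had every CRE library above every RFP library, and *Hspb8* and *Cryab* were 2 of them; 2.08% had every CRE library below every RFP library, with 0 members among them. *Cryab* overlaps *Hspb2* on the opposite strand by 757 exonic bases and *2310030G06Rik* by 871. Counts of *Hspb2* did not exceed 10 in a library, and those of *2310030G06Rik* did not exceed 7.

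*Hspb1* (ENSMUSG00000004951, chr5:135916760-135918417, plus strand, 3 exons) encodes HSP25, the mouse form of HSP27, which binds unfolding proteins and actin. It was close to the detection limit, with 0 counts in 6 of the 10 RFP libraries and at most 12 in the others, and with 4 to 90 counts in CRE libraries. It passed the filter on low counts only through the CRE group, with 16 or more counts in 10 of 11 libraries there and over 10 counts in 1 RFP library, so its fit is given as a description and adds no support to the other 3. In CPM the lowest, median and highest were 0.34, 2.68 and 12.3 in CRE and 0.0, 0.0 and 0.95 in RFP libraries. All CRE libraries but CRE 2-3, the lowest, lay above every RFP library. The fitted difference of 11.2-fold (log2 fold change 3.49, standard error 0.74, edgeR adjusted p = 0.000762) had an interval from 4.09 to 30.9 and rests on 33 counts in all RFP libraries together. The pseudogene *Hsp25-ps1*, which shares sequence with it, had 1 count in total.

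*Bag3*, *Hspb8* and *Cryab* stayed at an adjusted p under 0.05 over the 19 libraries, with log2 fold changes of 1.56, 1.48 and 1.11. *Hspb1* did so too, at 2.94, but it entered the test through its CRE counts, so its calls add no support. Over the 19 libraries 19.4% of genes were higher and 18.7% lower. The same 4 passed over all 23 libraries, where 16.4% of genes were higher and 11.8% lower, and with the libraries left by the study's methods, where 20.2% were higher. CRE 1-3 held the highest CRE level of each of the 4, at 12.3 CPM of *Hspb1*, 229.9 of *Hspb8*, 55.6 of *Bag3* and 86.8 of *Cryab*. Without it and RFP 2-4, the highest CRE levels were 4.44, 147.8, 34.97 and 75.3 CPM. Each of the 10 CRE libraries then lay above each of the 9 RFP libraries for *Hspb8* and *Cryab*, as for 3.78% of all genes, and 9 of 10 did for *Hspb1* and *Bag3*. The left-out library CRE 3-3 had 51.8 CPM of *Bag3* and 81.2 of *Hspb8*, and RFP 3-2 had 5.93 and 19.2.

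**Figure D2:**
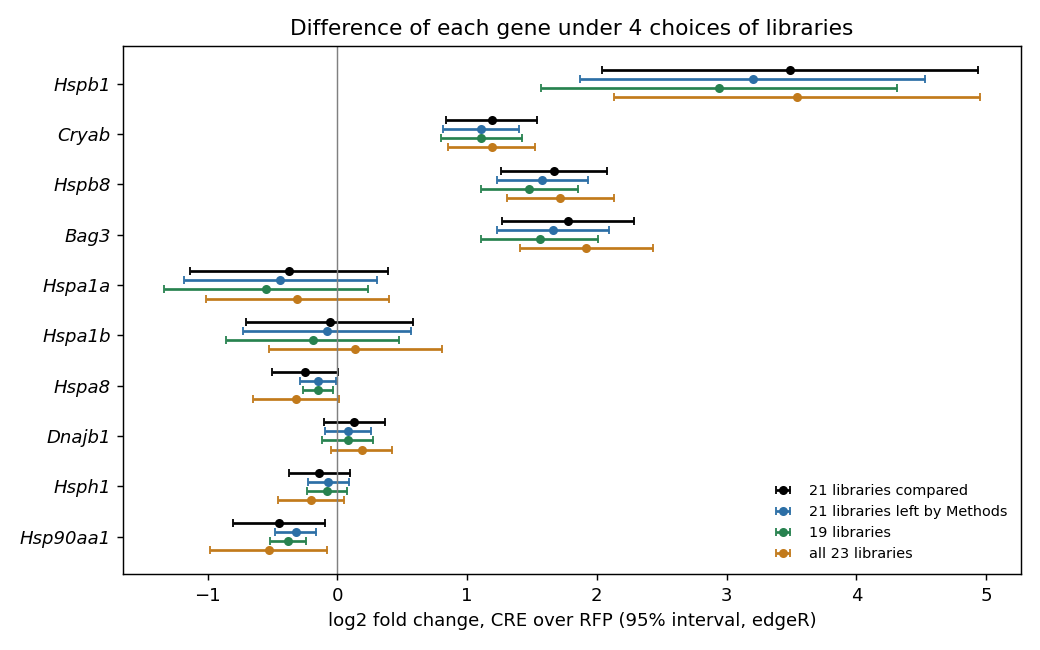
Points are log2 fold changes of CRE over RFP from edgeR and bars are 95% intervals, for the 21 libraries compared, the 21 left by the study's methods, 19 libraries and all 23. *Hspb1*, *Cryab*, *Hspb8* and *Bag3* stayed right of 0 under each choice, and the bars of *Hsp90aa1* shortened where CRE 1-3 was left out.

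Within sets, the ratio of mean levels of CRE over RFP libraries for *Hspb8* was 3.92 in set 1, 2.96 in set 2 and 2.12 in set 3. The ratios of *Bag3* were 4.55, 3.53 and 1.89, and those of *Cryab* 2.58, 2.25 and 1.86. Every CRE library lay above every RFP library of its own set for each of these 3 genes in each set, as it did for 4.06% of all genes tested. For all 3 the ratio was highest in set 1 and lowest in set 3, but the test of set by condition passed for 0 of the 10 members (edgeR adjusted p = 0.977 for *Hspb8*, *Bag3* and *Cryab*, smallest unadjusted p = 0.0787), and for 0.0069% of all genes tested. Set 1 includes CRE 1-3.

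The inducible HSP70 genes *Hspa1a* (ENSMUSG00000091971, chr17:35188166-35191132) and *Hspa1b* (ENSMUSG00000090877, chr17:35175412-35178214) lie side by side on the minus strand, their starts 12918 bases apart, and 3 of the 250 bases before the start differ between them. Both encode the HSP70 protein that is barely made without stress. *Hspa1a* had a lowest, median and highest of 0.63, 2.65 and 4.51 CPM in CRE and of 1.45, 2.58 and 9.28 CPM in RFP libraries. *Hspa1b* had 0.68, 4.02 and 6.66 CPM in CRE and 1.41, 4.55 and 6.72 in RFP libraries. For both genes the groups overlapped, and the CRE median lay within the RFP range. The log2 fold change of *Hspa1a* was -0.37 (standard error 0.39, edgeR adjusted p = 0.515) and that of *Hspa1b* -0.06 (standard error 0.33, edgeR adjusted p = 0.921), and the sign of the latter changed with the scaling and with the libraries.

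The intervals of the fold were 0.46 to 1.30 for *Hspa1a* and 0.61 to 1.51 for *Hspa1b*, so a rise as large as that of *Cryab*, the least of the 4, lay outside both. Of the 50-base stretches of *Hspa1a* 60.3% also occur in another gene, above all *Hspa1b*, and of those of *Hspa1b* 62.3%. Counts of each gene alone are therefore uncertain. With their counts summed, the log2 fold change was -0.18 (standard error 0.28, edgeR adjusted p = 0.675), and -0.34 (adjusted p = 0.365) over 19 libraries. *Hspa1a* gave a median of 40.9% of the summed counts in CRE (13.3% to 60.0%) and 36.8% in RFP libraries (23.3% to 86.8%). The highest share belongs to RFP 3-4, with 92 counts of *Hspa1a* against 14 of *Hspa1b*, or 86.8% (95% Clopper-Pearson interval 78.8% to 92.6%, counting error only).

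*Hsp90aa1* (ENSMUSG00000021270, chr12:110656842-110669166, minus strand, 11 exons) encodes the inducible cytosolic HSP90. It had a lowest, median and highest of 153.3, 768.3 and 859.1 CPM in CRE and of 713.9, 942.4 and 1114 CPM in RFP libraries. Both lowest values belong to the libraries that stood apart, CRE 1-3 and RFP 2-4. Over the 21 libraries the log2 fold change was -0.45 (standard error 0.18) and missed the threshold (edgeR adjusted p = 0.0602). Over the 19 libraries *Hsp90aa1* fell by 0.38 on the log2 scale (edgeR adjusted p = 0.000109), and each of the 10 CRE libraries, at 631.0 to 859.1 CPM, lay below each of the 9 RFP libraries, at 872.5 to 1114 CPM, a separation that 4.04% of all genes showed in these libraries. With the libraries left by the study's methods it fell by 0.32 (edgeR adjusted p = 0.00129), where 17.8% of genes were lower. It passed as lower in 12 of 21 settings in all. The processed pseudogene *Gm12346* shares sequence with it, and 34.2% of its 50-base stretches occur elsewhere.

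*Hspa8* (ENSMUSG00000015656, chr9:40711630-40731039, plus strand) encodes HSC70, the constitutive HSP70 that also uncoats clathrin vesicles. It had the highest level per length of the 10. Levels ran from 497.4 (median 1204) to 1450 CPM in CRE and from 1274 (median 1364) to 1559 CPM in RFP libraries, so the groups overlapped (log2 fold change -0.25, standard error 0.13, edgeR adjusted p = 0.131). The lowest CRE value was again that of CRE 1-3, and the others began at 1104 CPM. *Hspa8* passed as lower in 4 of 21 settings, all of them with the trend with GC content removed or with 19 libraries and the set in the model.

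*Hsph1* (ENSMUSG00000029657, chr5:149537636-149560156, minus strand) encodes HSP105, an HSP110 that releases clients of HSP70, and *Dnajb1* (ENSMUSG00000005483, chr8:84334811-84339820, plus strand) the HSP40 that feeds them to it. *Hsph1* lay between 86.9 and 207.2 CPM (median 178.3) in CRE and between 165.3 and 221.0 (median 177.7) in RFP libraries. *Dnajb1* lay between 56.8 and 102.7 CPM (median 72.8) in CRE and between 52.2 and 83.9 (median 65.2) in RFP libraries. Neither gene passed, and the groups overlapped for both. The log2 fold change was -0.14 for *Hsph1* (standard error 0.12, edgeR adjusted p = 0.402) and 0.13 for *Dnajb1* (standard error 0.12, edgeR adjusted p = 0.443, interval of the fold 0.93 to 1.28).

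Levels between genes were compared as mean CPM per kb of the canonical transcript. In RFP libraries the order was *Hspa8* at 580.2 ± 41.9 (SD, n = 10), *Hsp90aa1* at 268.6 ± 30.6, *Hsph1* at 29.3 ± 2.59, *Dnajb1* at 18.6 ± 2.66, *Hspb8* at 15.8 ± 3.67, *Cryab* at 13.9 ± 3.27, *Bag3* at 2.89 ± 0.98, *Hspa1b* at 1.51 ± 0.58, *Hspa1a* at 1.07 ± 0.79 and *Hspb1* at 0.33 ± 0.45 CPM per kb. Neighbours from *Dnajb1* to *Cryab* and from *Bag3* to *Hspb1* in this order overlapped in their ranges of 1 SD. In CRE libraries *Hspb8* at 51.1 ± 24.0 (SD, n = 11) and *Cryab* at 32.3 ± 10.1 came before *Hsph1* at 26.97 ± 5.63 and *Dnajb1* at 20.6 ± 4.00, and *Hspb1* at 3.80 ± 3.46 before both Hspa1 genes at 1.47 ± 0.71 (*Hspa1b*) and 0.84 ± 0.44 (*Hspa1a*) CPM per kb. The ranges of 1 SD again overlapped between these neighbours. *Hspa8* and *Hsp90aa1* kept the first places in CRE libraries, at 492.5 ± 106 and 199.9 ± 56.8 CPM per kb.

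Levels of pairs of members were related across libraries within each group on the log2(CPM + 1) scale, in 10 relations (5 pairs in 2 groups) with permutation tests of 100000 resamples, two-sided. Where levels were centred on set means, they were still shuffled across sets, so those p-values are likely too small. In CRE libraries *Hspb8* and *Bag3* had a Pearson's r of 0.89 (permutation p = 0.00035, adjusted 0.0035, n = 11) and a Spearman's rho of 0.88 (permutation p = 0.00068, adjusted 0.0068), and r was 0.94 without the 2 libraries farthest from the median. The libraries with more of one thus had more of the other. Centred on the mean of each set, r was 0.67 (permutation p = 0.0246, adjusted 0.0614) and did not pass. It was 0.41 without the 2 libraries then farthest out, CRE 1-3 and CRE 1-4. In RFP libraries it was 0.54 (permutation p = 0.106, adjusted 0.176, n = 10) and, centred on sets, 0.77 (permutation p = 0.00804, adjusted 0.0268).

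*Hspb1* and *Cryab* had an r of 0.82 in CRE libraries (permutation p = 0.00076, adjusted 0.0038, n = 11) and a rho of 0.85 (permutation p = 0.00161, adjusted 0.00805). Their r was 0.76 without 2 libraries and 0.89 centred on sets (permutation p = 0.00016, adjusted 0.0016). Without CRE 1-3 r was 0.73 and no longer passed (permutation p = 0.012, adjusted 0.0599, n = 10). In RFP libraries, most of them at 0 for *Hspb1*, r was -0.07 (permutation p = 0.87, n = 10). The relation of *Hsph1* and *Hsp90aa1* in CRE libraries (r = 0.90, permutation p = 0.00239, adjusted 0.00797, rho = 0.57 with permutation p = 0.0701, n = 11) had an r of 0.48 without CRE 1-3 and CRE 3-1. Centred on sets, r was 0.91 (permutation p = 0.00202, adjusted 0.0101) and rho 0.77 (permutation p = 0.00748, adjusted 0.0366), and r was 0.60 without the 2 libraries then farthest out, CRE 1-3 and CRE 1-2. Without CRE 1-3 alone it was 0.66 and did not pass (permutation p = 0.0384, adjusted 0.0959, n = 10). *Hspa1a* and *Hspa1b* had an r of 0.71 in CRE (permutation p = 0.0152, adjusted 0.038, rho = 0.70 with permutation p = 0.0208, adjusted 0.0694, n = 11), and of -0.40 in RFP libraries (permutation p = 0.249, n = 10), where RFP 3-4 lay apart. In CRE libraries r was 0.91 without 2 libraries, 0.61 centred on sets (permutation p = 0.047, adjusted 0.0941, n = 11) and 0.69 without CRE 1-3 (permutation p = 0.0288, adjusted 0.0959, n = 10), so the latter 2 did not pass. *Hspa8* and *Dnajb1* had an r of -0.57 in CRE (permutation p = 0.0643, n = 11) and of 0.41 in RFP libraries (permutation p = 0.24, n = 10), neither of which passed.

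**Figure D3:**
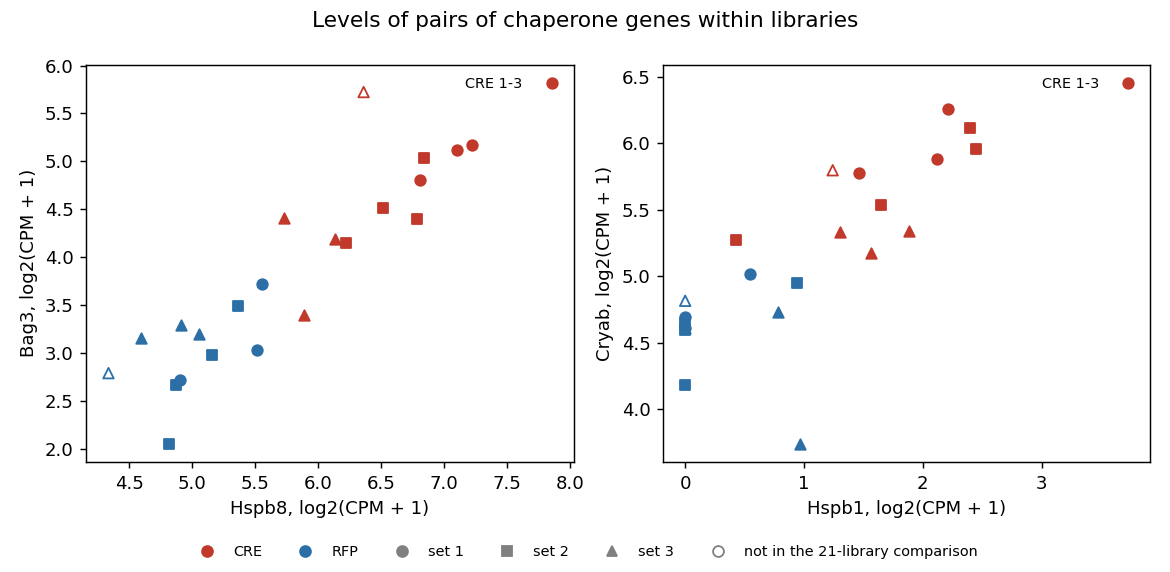
Each point is 1 of 23 libraries, with the log2(CPM + 1) level of one gene on each axis; red marks CRE, blue RFP, shapes the set and open symbols the libraries not compared. In CRE libraries *Hspb8* and *Bag3* were related with an r of 0.89 and *Hspb1* and *Cryab* with an r of 0.82, both over 11 libraries, with CRE 1-3 at the upper end. The first relation did not pass when centred on sets (adjusted permutation p = 0.0614), and the second did not without CRE 1-3 (adjusted permutation p = 0.0599).

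Among the regulators of the response, *Hsf1*, the main heat shock transcription factor, had a log2 fold change of 0.31 (edgeR adjusted p = 0.136) and *Hsf2* of 0.28 (adjusted p = 0.256), so neither passed. With the trend with GC content removed *Hsf2* passed as higher (0.57, edgeR adjusted p = 0.0213). *Hsbp1*, which encodes a small protein that binds HSF1 trimers, fell by 0.48 (edgeR adjusted p = 0.000101). It stood at 343.4 to 415.1 CPM in RFP and 202.2 to 322.8 CPM in CRE libraries. Every CRE library lay below every RFP library, as for 2.08% of all genes tested. Of 20 genes listed as other inducible targets of HSF1, 0 rose and 2 fell, with a median log2 fold change of -0.12. Among all genes tested 16.4% were higher and 13.8% lower. Of the same list 2 rose with the libraries left by the study's methods, where 20.2% of all genes were higher. Only 1 rose over all 23 libraries (16.4% of all genes), over 19 (19.4%) and with library totals (2949 of 14488 genes). The 2 that fell over the 21 libraries were *Hsp90ab1*, the constitutive HSP90 (by 0.35, edgeR adjusted p = 0.000867), and the HSP110 gene *Hspa4* (by 0.35, edgeR adjusted p = 0.00384). As it holds *Hsp90ab1*, the list is not one of inducible genes alone.

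The other chaperone families are given as counts, to be read against 16.4% higher and 13.8% lower among all genes. Of 11 other HSP70 and HSP110 genes 2 rose, *Hspa9* of mitochondria (0.62, adjusted p = 0.00676) and *Hyou1* of the endoplasmic reticulum (0.65, adjusted p = 0.0287, past the threshold in 12 of 21 settings), and 3 fell, *Hspa2*, *Hspa12a* and *Hspa4* (by 1.04, 0.48 and 0.35). Of 40 HSP40 genes 6 rose and 7 fell, shares near those of all genes, with a median log2 fold change of 0.11. Scaling by library totals gave 8 higher and 3 lower, where 2949 of all 14488 genes tested were higher and 1533 lower. The 3 with the smallest p among the 6 that rose were *Dnajc3* (0.72, adjusted p = 0.000618) and *Dnajb9* (1.09, adjusted p = 0.000636), which serve folding in the endoplasmic reticulum, and *Dnajc25* (0.87, adjusted p = 0.00104). Among the lower ones they were *Dnajc30*, *Dnajc6*, the neuronal auxilin that recruits HSC70 to clathrin coats, and *Dnajc19* (fell by 0.64, 0.48 and 0.85). *Dnajc19* passed in 17 of 21 settings, and not with the trend with GC content removed (-0.27, adjusted p = 0.656).

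With the same 16.4% and 13.8% as background, of 16 HSP90 genes and co-chaperones 1 rose, the kinase co-chaperone gene *Cdc37* (0.34, adjusted p = 0.049, past the threshold in 12 of 21 settings), and 2 fell, *Hsp90ab1* and *Fkbp5* (by 0.63). *Hspb6* was the only one of 8 other small heat shock protein genes that passed the filter on low counts, and it rose by 0.94 (edgeR adjusted p = 0.0206), without passing in 8 alternatives. Of 10 genes listed as exchange factors and partners of HSP70 1 rose, *Hspbap1* (0.69, edgeR adjusted p = 0.0255). The product of *Hspbap1* is named for its association with HSPB1, not with HSP70. *Hspbap1* was past the threshold in 16 of 21 settings and not over 19 libraries (edgeR adjusted p = 0.0611). Chaperonins and prefoldin subunits gave 1 higher and 1 lower of 16, *Cct4* (0.30, adjusted p = 0.0187, past the threshold in 17 of 21 settings) and *Cct6a* (fell by 0.41, adjusted p = 0.00916).

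**Figure D4:**
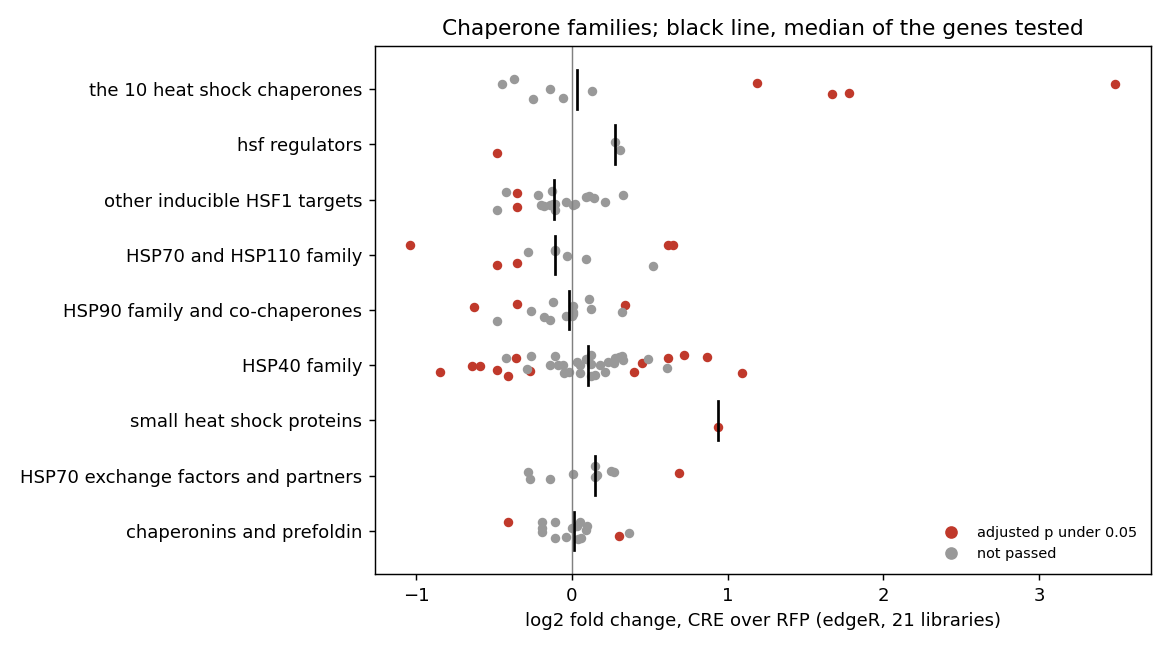
Each point is a tested gene, with its log2 fold change of CRE over RFP from edgeR over 21 libraries on the x axis and its list on the y axis; red marks an adjusted p under 0.05, grey the others, and the black line the list's median. Of the 20 genes listed as other inducible HSF1 targets 0 rose and 2 fell, and of the 10 heat shock chaperones 4 rose. Over these libraries 16.4% of all genes tested were higher and 13.8% lower. With the libraries left by the study's methods 2 of the 20 rose, where 20.2% of all genes were higher.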

How the data were processed

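RNA of 23 libraries was measured. Per the labels and the study's methods, the authors prepared libraries with Illumina Stranded mRNA Prep, demultiplexed with bcl2fastq 2.20.0.422, aligned with STAR 2.7.8a to GRCm39 and counted reads per gene with featureCounts 1.5.0-p1. The authors deposited whole-number counts without normalization. The strand setting and the treatment of multi-mapping reads are not given in the sources used here, so counts of genes that overlap or share sequence are uncertain. Names, coordinates and sequences came from GRCm39 with GENCODE M39, a later release than the authors' annotation, which named 56323 of 56941 genes.

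The groups were compared in edgeR 4.0.16 in R 4.3.3 (filterByExpr, TMM, robust quasi-likelihood fit), with Benjamini-Hochberg adjustment over the 14488 genes tested. CPM were computed once with TMM factors over 23 libraries. Intervals of a fold are 95% normal intervals from its standard error. Alternatives covered libraries, DESeq2 1.42.0, limma-voom (limma 3.58.1), scaling, filters, GC content, blocks, sums per set and sets left out. A further 4 were added after seeing the data. Correlations and figures used Python 3.11.15 with scipy 1.17.1 and matplotlib 3.10.9.

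On simulated counts for the CRE and RFP comparison over 14317 genes, edgeR called 59 of 66 genes with a log2 fold change of 2 in size, 50 of 67 with one of 1 and 3 unchanged genes. The members, the 8 chaperone lists and the 7 marker lists were chosen with earlier results of these data known. All members are named, with *Nedd8*, *Hsf1* and *Hsf2* and, in each chaperone list, up to 3 genes per direction with the smallest p among those past the threshold. Genes of the marker lists are given as counts. Counts of every 2 libraries of a group differed beyond sampling noise (chi-square per degree of freedom at least 10.9 over 121 pairs).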

Additional observations from a re-analysis of the deposited data

Results flagged for a closer look

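In the RFP group, 2 of the 10 members had a library far from the others. The *Hspa1a* level of 9.281 CPM in RFP 3-4 stood apart by 0.574 of the group's range, and the *Hsph1* level of 221.0 CPM in RFP 2-2 by 0.531, where 0.466 is the limit for 10 libraries. Chance flags about 1 in 20 groups. The 11 CRE libraries are too many for this measure.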

How the results depend on the processing

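*Hspb8*, *Bag3* and *Cryab* kept direction and threshold in every setting, with log2 fold changes of 1.38 to 1.78, 1.44 to 2.02 and 1.06 to 1.27. *Hspb1* did so where it was tested (2.94 to 4.38). It did not pass the filter without set 1 and with set and number as a replicate block. As it passed the filter over the 21 libraries only through the CRE group, its calls are a description and add no support. The count of lower members, 0 over the 21 libraries, was 1 with the libraries left by the study's methods, 19 libraries, DESeq2, limma-voom, CPM above 1 in 10 libraries, sums per set, without set 1, and DESeq2 on 19 libraries, and 2 with the trend with GC content removed, alone, with the set as a replicate block or over all 23 libraries, and with 19 libraries and the set as a replicate block. *Hspa1b*, at -0.06, was 0.14 over all 23 libraries, 0.04 with library totals and 0.11 without set 2. Library totals moved the median of all genes from 0.02 to 0.11. Over all genes, 2374 were higher and 1996 lower; 4367 were higher without a filter, 1512 with set and number as a replicate block and 1311 without set 2, where 803 were lower. The pair relations that passed were 4, and 1 with the libraries left by the study's methods or with 19. The set as a replicate block without these choices changed no member's call, and the numbers did not pair the libraries (correlations of deviations -0.06 to 0.11 over 9 pairs, and 1 of 11 CRE libraries correlated best with the RFP library of its own numbers). The cause was not tested. Depth limits *Hspb1*, at 33 counts in all RFP libraries, and both Hspa1 genes, at 7 to 92 counts a library.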
